A study of Mus musculus with 30 samples.

Results

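The 6 genes described here encode subunits of the NMDA (N-methyl-D-aspartate) receptor: Grin1, Grin2a, Grin2b, Grin2c, Grin2d and Grin3a. They were chosen by name and found by Ensembl gene ID among the 55401 gene IDs of a count table of mouse nucleus accumbens, and all 6 were detected and tested. The NMDA receptor is a glutamate-gated channel that passes calcium when glutamate and a co-agonist, glycine or D-serine, are bound while the membrane is depolarised. Every receptor holds the GluN1 subunit, joined by GluN2 subunits, which set its kinetics and its block by magnesium, or by GluN3 subunits, which lower its calcium flow. In the accumbens, the ventral part of the striatum, medium spiny neurons receive glutamate from cortex, hippocampus, amygdala and thalamus, and NMDA receptors at these inputs are known for synaptic plasticity in reward and in lasting pain.

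Polyadenylated RNA was sequenced from bilateral accumbens punches of 30 male C57Bl/6J mice, with 1 library per animal. All mice had surgery, either tibial spared nerve injury (SNI), which cuts part of the sciatic nerve and is used to model neuropathic pain, or sham. Beginning 4 weeks later, all were injected into the peritoneum 2 times a day for 3 weeks. Their ages were not among the labels used here. The 6 groups were sham with saline (5 mice, the study's control), sham with tianeptine at 30 mg/kg (6 mice), sham with desipramine at 15 mg/kg (4 mice), SNI with saline (5 mice), SNI with tianeptine at 30 mg/kg (6 mice) and SNI with desipramine at 15 mg/kg (4 mice). Tianeptine, an agonist of the mu-opioid receptor, and desipramine, a tricyclic blocker of noradrenaline uptake, are both antidepressants. The desipramine groups carry the label DMI, read here as desipramine from the treatment text.

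The libraries fall into 2 sets by their numbering. The first holds 24 libraries, replicates 1 to 4 of each group, with 24.5 to 37.7 M counts (M, 1000000). The second holds 6, numbered 5 or 6 and all from mice on saline or tianeptine, with 98 to 120.7 M counts. Markers of medium spiny neurons, which make up most accumbens neurons, were detected in every group, with all 12 tested and their summed level between 1210 and 8830 CPM (counts per 1000000 counts, with library totals scaled by edgeR's TMM method). Among the SNI desipramine libraries, replicates 1, 2 and 3 stood apart in their markers, and replicate 4 did not. A marker score is the mean log2 CPM of a list, each gene centred on its mean over the 30 libraries. SNI desipramine replicates 2 and 3 had medium spiny neuron scores of -2.39 and -0.69, against -0.48 to 0.55 outside that group. Their scores for septal, preoptic and hypothalamic neurons were 1.49 and 1.62, against at most 1.07 outside it. Replicate 1 lay inside those ranges but, like replicates 2 and 3, above all libraries outside the group in 3 other scores. For replicates 1 to 3 these were 0.58, 1.31 and 0.98 for thalamic and habenular neurons (at most 0.35 outside), 0.72, 0.93 and 0.69 for interneurons (at most 0.45) and 0.22, 0.47 and 0.25 for oligodendrocyte precursors (at most 0.17). Outside that group, sham tianeptine replicate 6 stood apart in choroid plexus markers, with a score of 4.14 against at most 0.65 in any other library. Values without replicates 2 and 3 are given for the calls of Grin2d, its shares and the correlations. A member's count per library ran from 732 (Grin2d) to 74332 (Grin2b).

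Grin1, which encodes the obligatory GluN1, had the highest level per length, with a mean of 41.7 ± 3.73 CPM per kb of exon (SD, n = 30). Grin2b, which encodes GluN2B, a slow subunit prominent in forebrain, followed at 20 ± 3.84, and Grin2c, which encodes GluN2C, best known from cerebellum and astrocytes, at 15.4 ± 3.47 CPM per kb. Grin2a, for GluN2A, the subunit of mature fast synapses, had 6.45 ± 2.17. Grin2d, for GluN2D, a slow subunit weakly blocked by magnesium, had 5.85 ± 2.04, and Grin3a, for GluN3A, 5.56 ± 1.84 CPM per kb. The remaining subunit gene, Grin3b, lay under them at 1.18 ± 0.192 CPM per kb (0.882 to 1.58). Grin1 stood above Grin2b in 30 of 30 libraries, and the ranges did not overlap. All other neighbours in this order had ranges that overlapped, with Grin2b above Grin2c in 26 of 30 libraries, Grin2c above Grin2a in 30, Grin2a above Grin2d in 21 and Grin2d above Grin3a in 19. Per kb of coding sequence the order became Grin1, Grin2b, Grin2a, Grin2c, Grin3a and Grin2d, with Grin1 above Grin2b in 27 of 30. The places of the lower 4 genes thus depend on the length used. Reads were not recounted over coding sequence, and whole-gene CPM were divided by coding length. This raises genes with much noncoding exon, such as Grin2b (24.842 kb of exon, 4.447 kb coding), relative to Grin2c (5.037 and 3.717 kb).

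**Figure D1:**
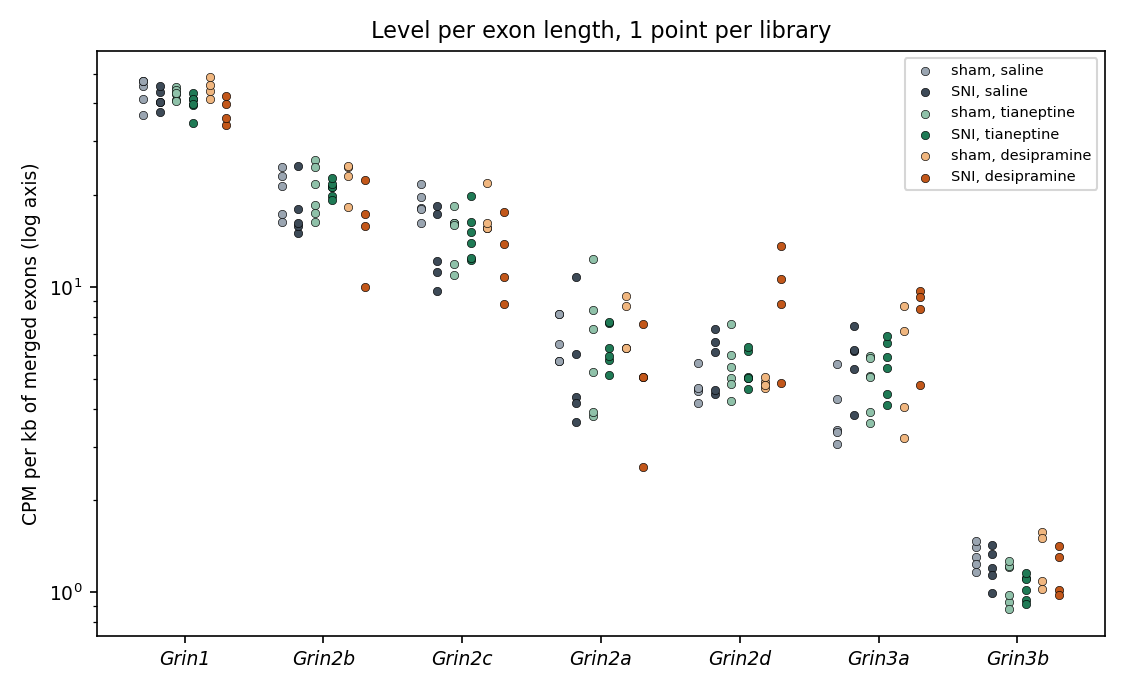
Level of each NMDA receptor subunit gene in CPM per kb of merged exons (log axis), with 1 point per library coloured by group. The Grin1 points (34 CPM per kb and up) sit above all Grin2b points (26.1 and down), and the Grin2d points of 3 SNI desipramine libraries lie above the other Grin2d points.

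Among the GluN2 genes per kb of exon, Grin2b made up 41.8 ± 4.34% (SD, n = 30), Grin2c 32.1 ± 4.86%, Grin2a 13.2 ± 2.71% and Grin2d 12.9 ± 6.56%. The Grin2d share was 9.24 ± 0.415% (SD, n = 4) in sham mice on desipramine and 23.2 ± 12.3% (SD, n = 4) in SNI mice on desipramine, where it was 19.5, 38.9, 25.1 and 9.26% in replicates 1 to 4. Without replicates 2 and 3 its mean there was 14.4%. The shares depend on the length used. Per kb of coding sequence they were 66% for Grin2b, 12.4% for Grin2c, 15.2% for Grin2a and 6.3% for Grin2d over the 30 libraries. Grin2c then lay below Grin2a. Here too whole-gene counts were divided by coding length, which favours genes with much noncoding exon. These shares describe RNA and not the makeup of receptors.

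The positions are those of the mm10 build in GENCODE M21, where all 6 genes are protein coding and on the minus strand. Grin1 (ENSMUSG00000026959.13) is at chr2:25291181-25319187, Grin2a at chr16:9567898-9995560 and Grin2b at chr6:135713233-136173511. Grin2c is at chr11:115249169-115267243, Grin2d at chr7:45831883-45878378 and Grin3a at chr4:49661611-49845744. Exons of the antisense gene Grin1os cover 13.47% of the exon length of Grin1, and those of Gm45441 cover 9.66% of that of Grin2d. The strand setting used in counting is not known here, so reads of these antisense genes cannot be told apart from reads of Grin1 and Grin2d.

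Upstream sequence is shown for Grin1 and Grin2c, the members with a matched RefSeq entry whose window lay outside their own exons. Availability chose this pair, and not their correlation of r = 0.70 over 30 libraries, given further on. Each run is the 250 bases before the start of the gene in RefSeq on GRCm38.p6, minus strand, 5′ to 3′, outside any annotated exon, with matches to the GC box GGGCGG on either strand in capitals (overlapping matches counted).
Grin1, chr2:25319188-25319437: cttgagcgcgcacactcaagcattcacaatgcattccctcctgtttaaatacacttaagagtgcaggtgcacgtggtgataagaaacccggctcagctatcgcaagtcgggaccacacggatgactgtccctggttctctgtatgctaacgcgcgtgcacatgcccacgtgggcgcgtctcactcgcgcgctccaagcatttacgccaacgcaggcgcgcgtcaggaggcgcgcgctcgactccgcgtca
Grin2c, chr11:115267244-115267493: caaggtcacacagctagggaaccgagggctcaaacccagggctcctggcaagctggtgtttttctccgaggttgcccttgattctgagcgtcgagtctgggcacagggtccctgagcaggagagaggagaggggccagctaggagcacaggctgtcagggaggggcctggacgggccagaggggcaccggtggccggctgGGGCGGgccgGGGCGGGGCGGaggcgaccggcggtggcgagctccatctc
The Grin1 stretch holds 27 CpG dinucleotides, a GC content of 58.8% and 0 GC boxes. The Grin2c stretch holds 15 CpG dinucleotides, a GC content of 68.8% and 3 GC boxes. Of 32851 such windows of 250 bases in RefSeq, 32.74% hold a GC box, and the medians are 6 CpG dinucleotides and 52.4% GC. Neither stretch holds TATAAA (12.37% of windows) or the cyclic AMP response element TGACGTCA (1.55%). The matches are a description of these letters.

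Between SNI and sham mice that both had desipramine, Grin2d was the 1 member that passed the threshold in the main fit. Grin2d was at 31.2, 32.6, 33.7 and 31.8 CPM in the 4 sham mice on desipramine. It was at 58.6, 90.5, 70.8 and 32.3 CPM in SNI replicates 1 to 4 on desipramine. SNI replicates 1 to 3 lay above every other library of the study, whose highest was 50.4 CPM, while replicate 4 lay among the sham libraries, so the groups overlapped. The means were 63 ± 24.3 CPM (SD, n = 4) after SNI and 32.3 ± 1.09 CPM (SD, n = 4) after sham. Grin2d rose by 0.96 ± 0.20 on the log2 scale (SE, edgeR adjusted p = 0.00725, interval 0.55 to 1.38). In this comparison 11.3% of the 23736 genes tested passed, and the count of 1 of 6 members is to be read beside that share. Intervals have a confidence level of 95% and are not adjusted for the number of genes.

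The SNI desipramine replicates 1 to 3, high in Grin2d, lay below the sham mice on desipramine in Grin1 and the other GluN2 genes. None of these differences passed the test. Against all 26 libraries outside the group, only 1 SNI desipramine library lay lowest in each of these genes. Against SNI mice on saline, Grin1, Grin2a, Grin2b and Grin2c differed by -0.13, 0.05, -0.04 and -0.06. Grin1 was at 400, 471, 426 and 444 CPM after sham and at 384, 329, 346 and 410 CPM after SNI. Its difference was -0.24 ± 0.09 (adjusted p = 0.0617) and did not pass. Grin2b was at 613, 455, 618 and 572 CPM after sham and at 430, 248, 392 and 557 CPM after SNI. For both genes, 3 SNI libraries lay below all 4 sham libraries, and replicate 4 did not. The Grin2b difference was -0.47 ± 0.16 (adjusted p = 0.0535), which did not pass either.

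Grin2a was at 167, 113, 155 and 113 CPM after sham and at 91.3, 46, 90.7 and 136 CPM after SNI on desipramine, a difference of -0.59 ± 0.26 (adjusted p = 0.133). Grin2c was at 78.5, 111, 78.8 and 81.7 CPM and at 69.4, 44.3, 54.4 and 88.4 CPM, a difference of -0.45 ± 0.20 (adjusted p = 0.154). In these genes too SNI replicates 1 to 3 lay under all sham libraries on desipramine and replicate 4 within their range. Grin3a was at 88.2, 49.6, 107 and 39.3 CPM after sham and at 104, 119, 114 and 58.6 CPM after SNI, a difference of 0.48 ± 0.27 (adjusted p = 0.265). The sham libraries were themselves spread, and the groups overlapped. Over the 6 members the median difference was -0.35, against 0.01 over all genes tested, and 5 members were at an unadjusted p under 0.05, beside 27.6% of all genes.

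**Figure D2:**
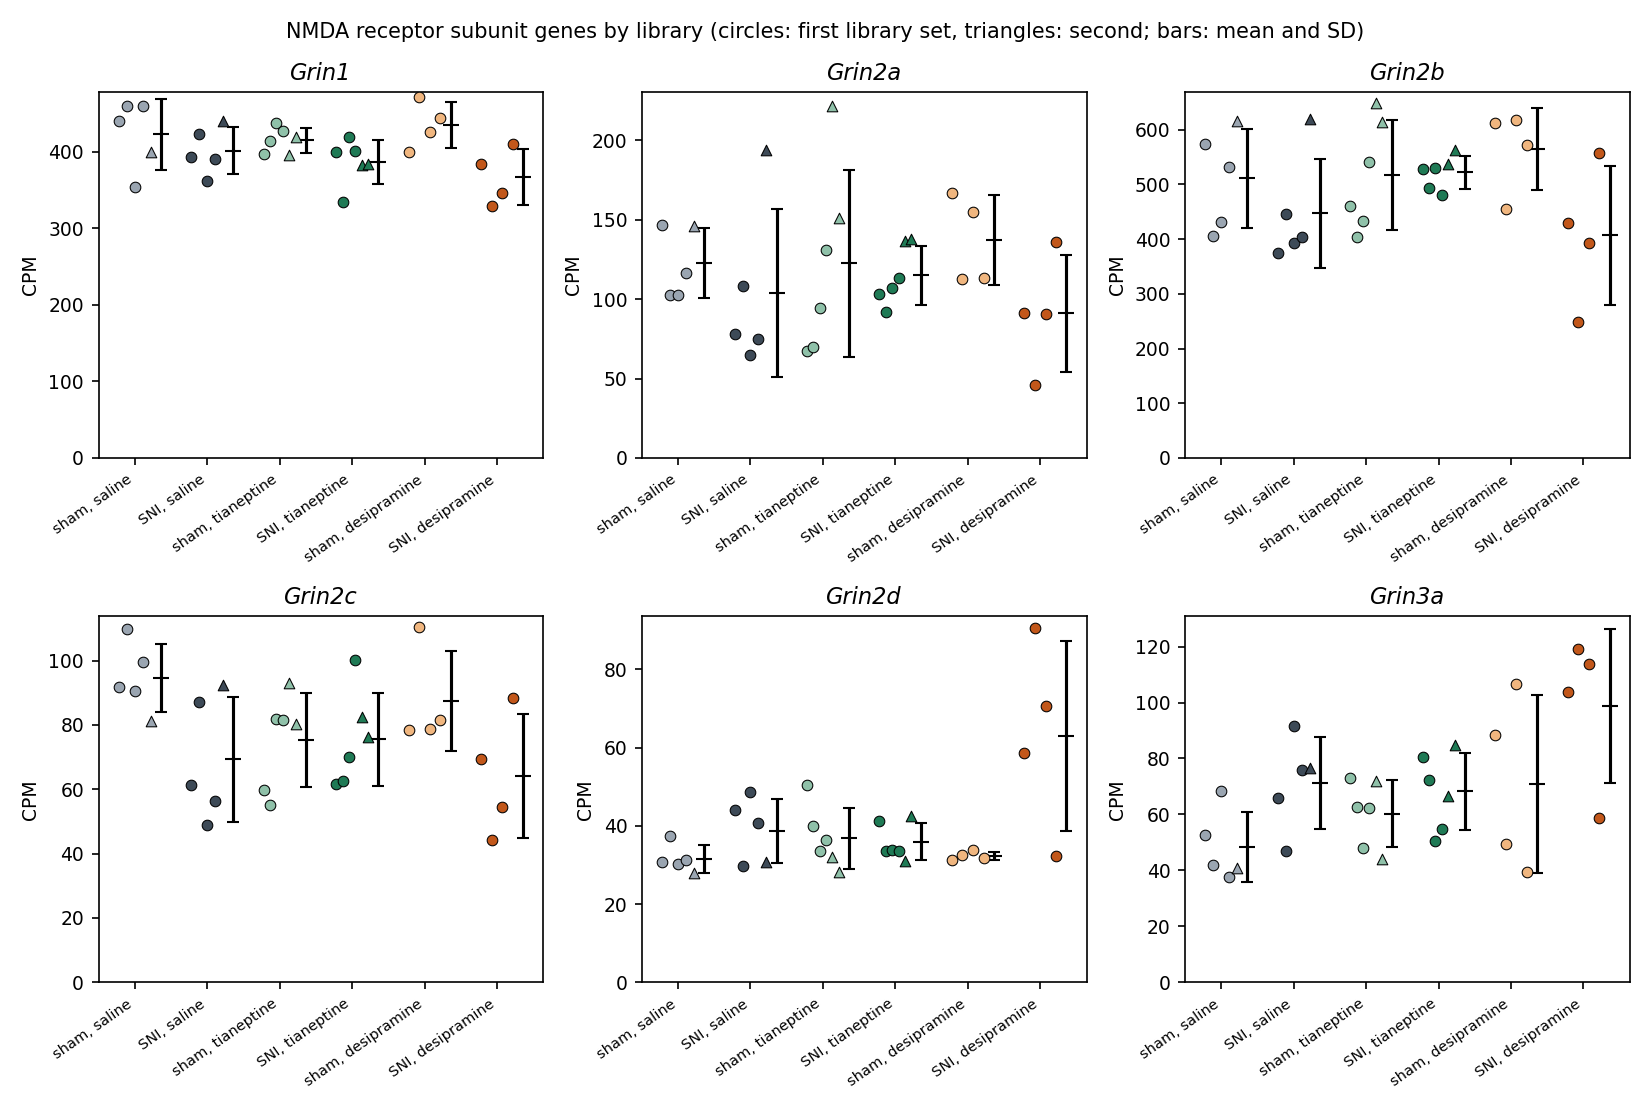
CPM of the 6 subunit genes by group, with 1 point per library (circles for the first library set, triangles for the second) and the mean with SD as bars. In Grin2d, 3 SNI desipramine libraries sit between 58.6 and 90.5 CPM, above all others, and the fourth sits at 32.3 CPM among the sham libraries.

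The call for Grin2d and the markers of other cell types moved together in these libraries. In bulk tissue, fewer cells of a type and less RNA per cell cannot be told apart. Of 8 thalamic and habenular neuron markers, all tested, 4 passed as higher by edgeR and 0 as lower in this comparison. In direction alone, 6 were higher and 2 lower. Their summed level ran from 104 to 318 CPM after SNI and from 86.9 to 130 CPM after sham. Of 12 septal, preoptic and hypothalamic markers, 10 were tested, with Avp and Oxt too low to test. Of these 10, 4 passed as higher and 0 as lower, and all 10 were higher in direction. They were at 948 to 1200 CPM summed after SNI and 550 to 1110 CPM after sham. Of 12 markers of somatostatin, parvalbumin and cholinergic interneurons, 7 passed as higher and 1 as lower, with 9 higher and 3 lower in direction. They were at 509 to 843 CPM and 463 to 584 CPM. Medium spiny neuron markers were lower in 12 of 12 with 0 past the threshold, at 1210 to 8000 CPM after SNI and 4550 to 8830 CPM after sham. Cortical excitatory neuron markers were lower in 10 of 12 with 0 past it, at 199 to 520 CPM and 357 to 1620 CPM. Glial lists moved in the same libraries. Of 8 oligodendrocyte precursor markers, 3 passed as higher and 0 as lower by edgeR, with 7 higher and 1 lower in direction. They were at 387 to 582 CPM after SNI and 356 to 436 CPM after sham. Of 12 astrocyte markers, 3 passed as higher and 0 as lower, with 11 higher and 1 lower in direction, at 3850 to 4610 CPM and 3980 to 4360 CPM. Of 10 oligodendrocyte markers, 10 had a positive difference and 0 passed, at 3560 to 5510 CPM and 2970 to 4910 CPM. Of 7 tested choroid plexus markers, 4 were higher and 3 lower in direction, with 0 past the threshold. Their summed level did not overlap, at 51.5 to 72.9 CPM after SNI and 23 to 46.9 CPM after sham. Endothelial markers were lower in 9 of 10 and microglial ones higher in 6 of 10, with 0 past the threshold. No tested marker of these lists was at 0 in all libraries of either group.

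With the medium spiny, cortical and septal scores as covariates, Grin2d differed by 0.25 (adjusted p = 0.632), and 0 genes of the table passed. These scores come from the same libraries and differ between the compared groups, so the covariates can also take up a difference between groups. Without SNI replicates 2 and 3 it differed by 0.47 (adjusted p = 0.621), again with 0 genes passing. Without SNI replicate 2 alone it differed by 0.72 (adjusted p = 0.0644). Without SNI replicate 4, the library with the lowest Grin2d, it differed by 1.16 (adjusted p = 5.1e-05), and Grin1, Grin2a, Grin2b and Grin2c then passed as well, at -0.32, -0.87, -0.68 and -0.66, in a fit that called 5903 genes, 24.9% of the number tested. The count of members called thus runs from 0 to 5 with the library left out.

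Averaged over saline, tianeptine and desipramine, Grin2d was higher after SNI by 0.41 ± 0.10 (edgeR adjusted p = 0.0426, interval 0.20 to 0.63), the 1 member of 6 that passed, beside 1.84% of all genes. Grin1 was lower at -0.14 ± 0.04 (adjusted p = 0.0761), Grin2b at -0.22 ± 0.08 (adjusted p = 0.127), Grin2c at -0.30 ± 0.11 (adjusted p = 0.102) and Grin2a at -0.31 ± 0.13 (adjusted p = 0.169), while Grin3a was higher at 0.41 ± 0.14 (adjusted p = 0.101). These 5 did not pass, although all 6 members were at an unadjusted p under 0.05, as were 22.6% of all genes. This call was lost in 21 of 30 fits that each left out 1 library. Without SNI desipramine replicates 2 and 3 the average difference was 0.25 (adjusted p = 0.413), and with the tissue scores as covariates it was 0.08 (adjusted p = 1). In the averaged comparison 2 of 10 septal, 1 of 8 thalamic and 2 of 12 interneuron markers passed as higher and 0 as lower. In direction these lists had 8 higher and 2 lower, 5 and 3, and 10 and 2. Medium spiny, cortical and endothelial markers were lower in 12 of 12, 11 of 12 and 10 of 10, with 0 past the threshold. Oligodendrocyte and astrocyte markers were higher in 10 of 10 and 10 of 12, also with 0 past it.

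In mice on saline, the comparison that shows nerve injury without a drug, 0 of 6 members passed (0% of all genes by edgeR), with 2 at an unadjusted p under 0.05 and 0 called by DESeq2 or limma-voom. Grin2c was at 91.7, 110, 90.6, 99.5 and 81.4 CPM in the 5 sham mice and at 61.4, 87.2, 49, 56.3 and 92.4 CPM in the 5 SNI mice. Most SNI libraries lay lower, but the ranges overlapped, and the difference was -0.46 ± 0.18 (adjusted p = 0.443). Grin3a was at 52.8, 41.9, 68.5, 37.7 and 41 CPM after sham and at 66, 46.8, 91.6, 75.7 and 76.5 CPM after SNI. This difference was 0.56 ± 0.25 (adjusted p = 0.466), again with overlap. Grin2d was at 30.8, 37.5, 30.3, 31.2 and 27.9 CPM after sham and at 44, 29.6, 48.5, 40.7 and 30.7 CPM after SNI, a difference of 0.29 ± 0.18 (adjusted p = 0.612). Grin2a, Grin2b and Grin1 differed by -0.33 ± 0.23, -0.21 ± 0.14 and -0.07 ± 0.08. Marker lists also differed here, with 0 markers past the threshold. Medium spiny, cortical and endothelial markers were lower in 12 of 12, 12 of 12 and 10 of 10. Microglial markers were lower in 9 of 10, septal ones higher in 9 of 10, and the remaining lists were split more evenly. SNI replicates 1, 3 and 4, lowest in Grin2c, had septal scores of 0.45, 0.80 and 0.44. For replicates 2 and 5 these were -0.91 and -1.12. The cause was not tested.

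In mice on tianeptine the 6 members had close levels after SNI and sham, with 0 of 6 called by edgeR (0% of all genes), 0 at an unadjusted p under 0.05, and 0 by DESeq2 or limma-voom. The differences ran from -0.10 ± 0.07 for Grin1 to 0.18 ± 0.22 for Grin3a (every adjusted p = 1). Grin2d was at 28.2, 35 and 50.4 CPM (lowest, median and highest of 6) after sham and at 30.9, 33.8 and 42.4 CPM after SNI. Its difference of -0.02 had an interval from -0.35 to 0.32. Whether the response to SNI differs between tianeptine and desipramine was not tested. Grin2b had its narrowest spread in SNI mice on tianeptine, at 522 ± 30.5 CPM (SD, n = 6). Grin2a in the sham mice on tianeptine had a wide spread, from 67.6 over a median of 113 to 222 CPM, the widest in CPM of the 6 groups. The group's second-set libraries were its highest, at 222 and 151 CPM, and its first-set libraries ran from 67.6 to 131 CPM.

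**Figure D3:**
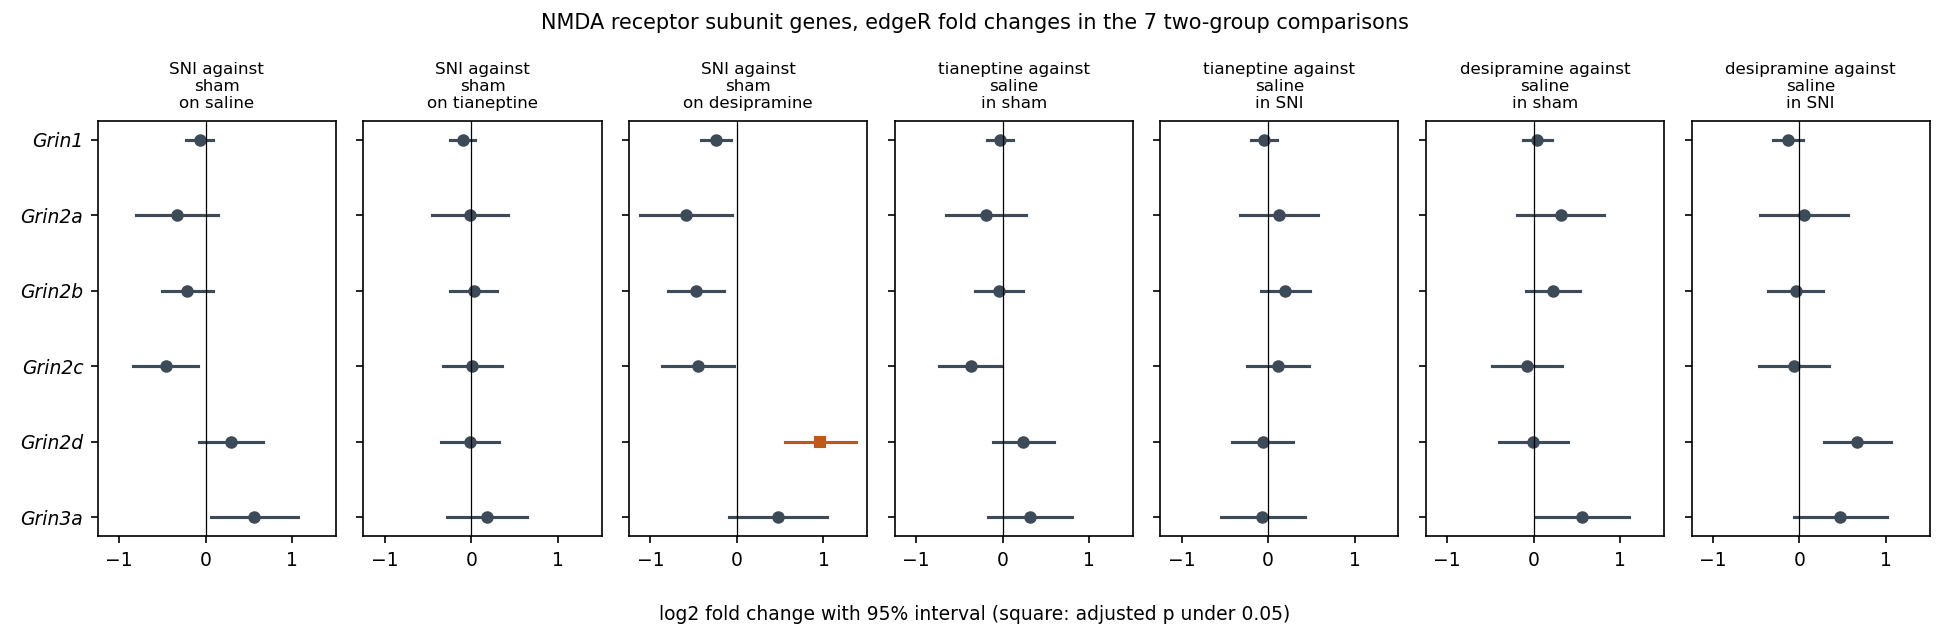
Log2 fold change with its 95% interval (x axis) for the 6 subunit genes (y axis) in the 7 comparisons of 2 groups, with a square where the adjusted p is under 0.05. The single square is Grin2d in SNI against sham on desipramine at 0.96, and on tianeptine the same comparison lies between -0.10 and 0.18 for all members.

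Tianeptine was compared with saline to ask what the drug does to these genes in sham mice and after injury. The comparisons of drug with saline share the saline libraries with the comparison of SNI with sham on saline. In sham mice 0 of 6 members passed (0% of all genes by edgeR), with 1 at an unadjusted p under 0.05 and 0 called by DESeq2 or limma-voom. That member was Grin2c, at 81.4, 91.7 and 110 CPM (lowest, median and highest of 5) on saline and 55.1, 80.8 and 93 CPM (of 6) on tianeptine, a difference of -0.37 ± 0.18 (adjusted p = 0.729). In SNI mice 0 of 6 passed (0% of all genes), with 0 at an unadjusted p under 0.05 and 0 by DESeq2 or limma-voom. There the differences ran from -0.07 ± 0.24 for Grin3a to 0.20 ± 0.14 for Grin2b. Averaged over surgeries the differences ran from -0.13 ± 0.12 for Grin2c to 0.12 ± 0.17 for Grin3a, and 0 of 6 passed (0% of all genes). The tianeptine by surgery term, the test of whether the drug's difference changes with injury, passed for 0 of 6 (0% of all genes), with Grin2c at 0.48 ± 0.25 and Grin2a at 0.31 ± 0.31 (both adjusted p = 0.989). At an unadjusted p under 0.05 there were 0 members in either of these, and DESeq2 and limma-voom called 0.

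Desipramine against saline in sham mice called 0 of 6 (0% of all genes by edgeR, 1 member at an unadjusted p under 0.05, 0 by DESeq2 or limma-voom). Grin3a was the member farthest apart, at 0.56 ± 0.26 (adjusted p = 0.639). Its desipramine libraries, at 88.2, 49.6, 107 and 39.3 CPM, fell on either side of the highest saline library at 68.5 CPM. Grin2d differed by -0.01 ± 0.19 and its sham desipramine libraries spread by only 1.09 CPM (SD).

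In SNI mice desipramine against saline gave Grin2d at 0.67 ± 0.19 (adjusted p = 0.101), with 0 of 6 members called by edgeR (0% of all genes), 1 at an unadjusted p under 0.05, 0 by limma-voom and 1 by DESeq2, which called Grin2d (adjusted p = 0.0341) among 555 genes, 2.34% of the number tested by edgeR. Without SNI desipramine replicate 4 edgeR also called Grin2d, at 0.87 (adjusted p = 0.00202), among 3352 genes (14.1%). Without replicates 2 and 3 Grin2d was at 0.18 (adjusted p = 1), and without replicate 2 alone at 0.43 (adjusted p = 0.582), with 0 members called in either. The other members lay between -0.13 ± 0.08 for Grin1 and 0.47 ± 0.26 for Grin3a. Averaged over surgeries 0 of 6 passed, beside 0.0295% of all genes, with Grin3a at 0.52 ± 0.19 (adjusted p = 0.28) and Grin2d at 0.33 ± 0.14 (adjusted p = 0.334), both at an unadjusted p under 0.05. DESeq2 and limma-voom called 0. The desipramine by surgery term was 0.67 ± 0.27 for Grin2d (adjusted p = 0.334, interval 0.12 to 1.22), so a difference of its desipramine response between SNI and sham did not pass, in a comparison where 0% of all genes did and 1 member was at an unadjusted p under 0.05. Without SNI desipramine replicate 4 this term was 0.87 (adjusted p = 0.0216), with 957 genes called (4.03%). Without replicates 2 and 3 it was 0.18 (adjusted p = 0.935), and without replicate 2 alone 0.43 (adjusted p = 0.694).

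Tianeptine and desipramine, averaged over surgeries, were set against each other as the study's 2 active treatments. No member passed, beside 0.438% of all genes, with 1 at an unadjusted p under 0.05 and 0 by DESeq2 or limma-voom. Grin3a differed by -0.39 ± 0.19 (adjusted p = 0.344) and Grin2d by -0.24 ± 0.14 (adjusted p = 0.433), with tianeptine lower. Grin1 and Grin2b differed by 0.01 ± 0.06 and -0.01 ± 0.11, and their intervals ran from -0.11 to 0.12 and from -0.23 to 0.21.

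GluN2A partly replaces GluN2B as synapses mature. The balance of Grin2a to Grin2b was taken as a log2 ratio of CPM in each library, which does not depend on library scaling. It was -2.06 ± 0.09 (SD, n = 5) in sham mice on saline, -2.19 ± 0.43 (n = 6) on tianeptine and -2.05 ± 0.20 (n = 4) on desipramine. After SNI it was -2.20 in all 3 treatments, with an SD of 0.36 (n = 5) on saline, 0.19 (n = 6) on tianeptine and 0.17 (n = 4) on desipramine. No difference passed in 7 exact permutation tests of 2 groups, 2-sided and within library set, where the smallest adjusted p was 0.65 and the groups overlapped in all 7. The differences ran from -0.18 for tianeptine against saline in sham to 0.12 for desipramine against saline in SNI. The smallest unadjusted p these tests can reach lies between 0.00476 and 0.0286. The ratio was -1.89 ± 0.22 (n = 6) in the second library set and -2.22 ± 0.23 (n = 24) in the first. The saline and tianeptine group means above mix the 2 sets, and the desipramine groups hold no second-set library. The equal means after SNI are thus not adjusted for set, whereas the tested differences are.

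Over the 30 libraries the members fell into opposing patterns, described here with no test, on log2 CPM centred on the library set. Grin2a and Grin2b moved most closely together (r = 0.86), followed by Grin2a and Grin2c (r = 0.74), Grin1 and Grin2c (r = 0.70) and Grin2d and Grin3a (r = 0.70). Grin2d ran against Grin2b (r = -0.73), Grin2c (r = -0.72), Grin2a (r = -0.69) and Grin1 (r = -0.60). Without SNI desipramine replicates 2 and 3 (28 libraries) these were -0.50, -0.61, -0.61 and -0.35, and Grin2d with Grin3a was 0.58. The same 28 libraries gave 0.82 for Grin2a with Grin2b, 0.68 for Grin2a with Grin2c and 0.60 for Grin1 with Grin2c. Members share libraries and their tissue makeup, so these are not independent relations.

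Each member was compared with 11 marker scores, which makes 66 pairs, by permutation tests over the 30 libraries with 100000 resamples, 2-sided and adjusted over the pairs. Of these, 43 passed by Pearson's r and 35 by Spearman's rho. The permutations ran without regard to group or library set, so a pass can include differences between groups or sets. Grin2b with the cortical score, for example, passed at r = 0.52 and had r = 0.20 within groups. Grin2d followed the thalamic and habenular score most closely (r = 0.93, adjusted p = 5.5e-05, rho = 0.77, adjusted p = 6e-05). Within library sets r was 0.95 (n = 24) and 0.88 (n = 6), within groups 0.92, and without the 2 libraries farthest from the median score, SNI desipramine replicates 2 and 3, 0.84. Grin2d also rose with the septal score (r = 0.85, rho = 0.79, without those 2 libraries r = 0.77) and the interneuron score (r = 0.85, rho = 0.78), and fell with the medium spiny score (r = -0.77, rho = -0.51), where r was -0.47 without the 2 libraries and -0.16 in the second set. With the glial scores Grin2d reached r = 0.80 (rho = 0.49) for oligodendrocyte precursors, where r was 0.55 without the 2 libraries and 0.24 in the second set. With astrocytes it reached r = 0.56 (rho = 0.31, permutation adjusted p = 0.138 for rho). Apart from that rho, the adjusted permutation p was at most 0.0137 in these relations.

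Grin2c fell with the septal score (r = -0.84, rho = -0.78) and rose with the cortical excitatory score (r = 0.75, rho = 0.73), with within-set r of -0.86 and -0.85 and of 0.76 and 0.82. Its relation to the astrocyte score, the cell type it is often linked with, was r = -0.09 (permutation adjusted p = 0.676) and rho = 0.10. Grin2a had the same pairing, at r = -0.81 with the septal score and 0.74 with the cortical score. Grin2b reached r = -0.71 with oligodendrocytes and -0.70 with the thalamic score, but with oligodendrocytes r was 0.54 in the 6 libraries of the second set. Grin1 ran against the thalamic score (r = -0.72, rho = -0.75, and r = -0.58 without the 2 libraries). Grin3a rose with the thalamic score (r = 0.75, rho = 0.72) and fell with the medium spiny score (r = -0.70, rho = -0.76, and r = -0.70 without the 2 libraries).

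**Figure D4:**
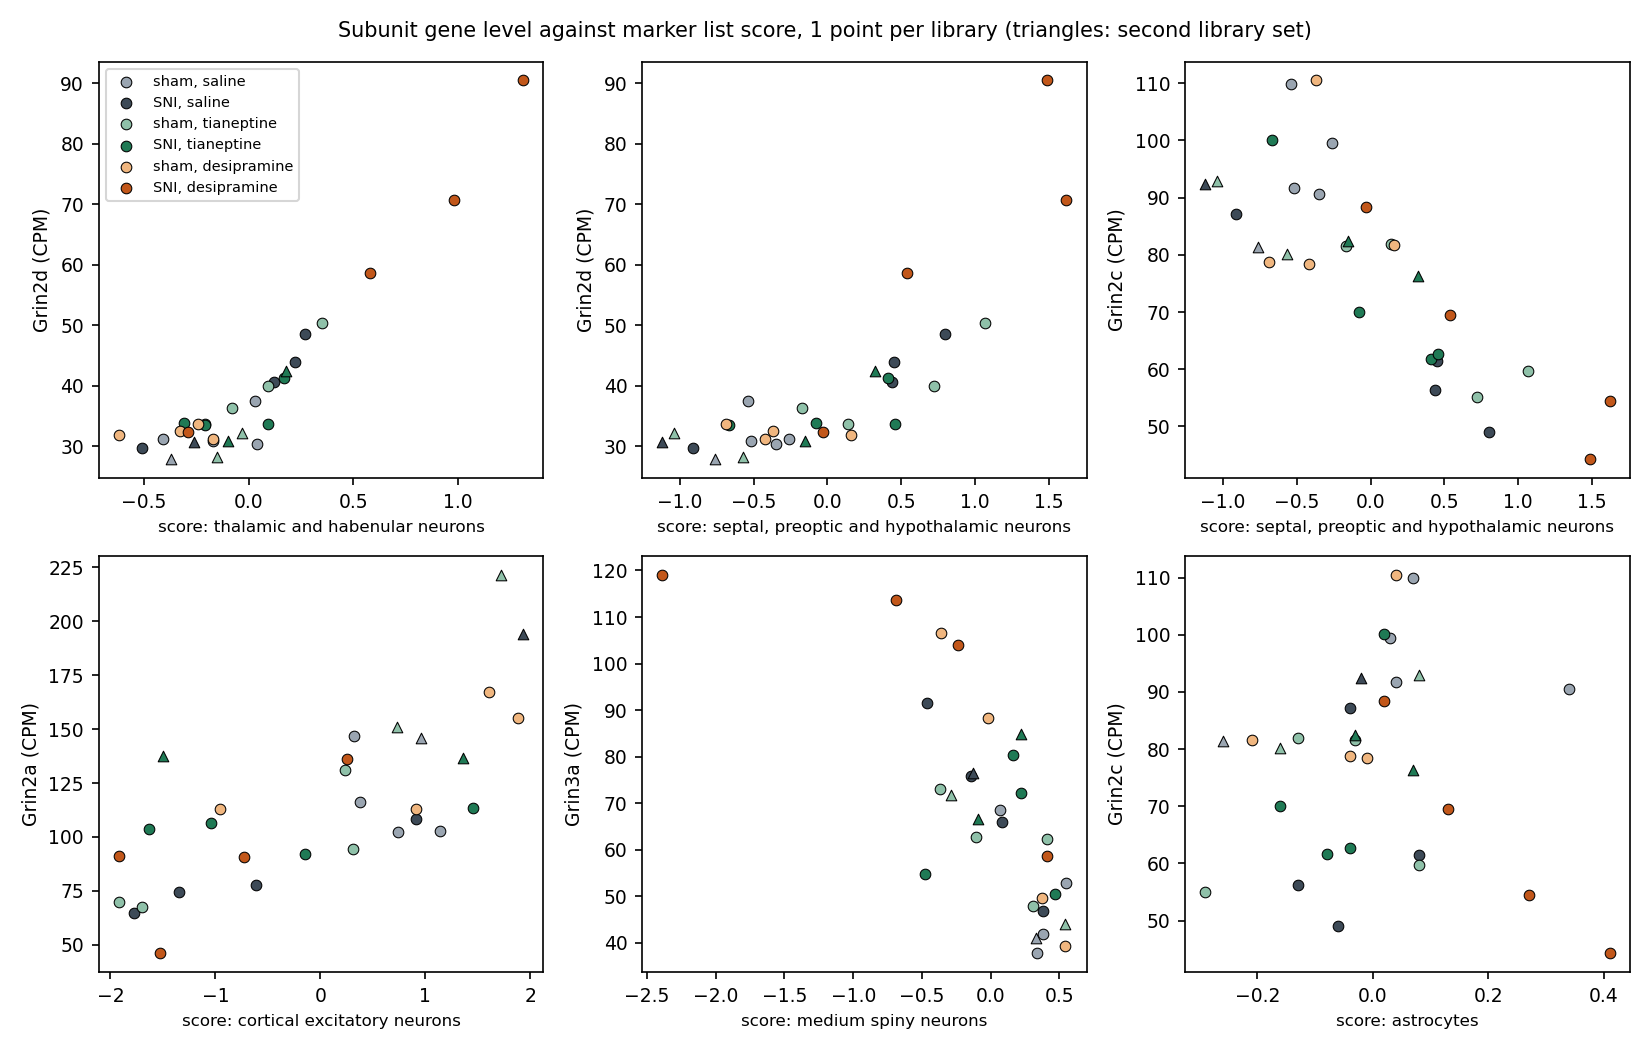
CPM of a subunit gene (y axis) against the score of a marker list (x axis, mean centred log2 CPM) in 6 pairs, with 1 point per library coloured by group and triangles for the second library set. Grin2d climbs with the thalamic and septal scores (r = 0.93 and 0.85), Grin2c falls with the septal score (r = -0.84) and shows no trend with the astrocyte score (r = -0.09).

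The genes most like each member in pattern were taken among 13694 genes by Pearson's r over the 30 libraries, centred on the library set. For Grin2d they were Psd2 (r = 0.977), Lrrc75b (r = 0.97) and Slc6a11 (r = 0.967), the last encoding a GABA transporter. For Grin1 they were the antisense gene Grin1os (r = 0.968), whose exons overlap those of Grin1, the sodium-activated potassium channel gene Kcnt1 (r = 0.906) and Lmtk3 (r = 0.872). For Grin2a they were Dock3 (r = 0.941), Slitrk3 (r = 0.938) and Hivep2 (r = 0.923), and for Grin2b they included Ccny (r = 0.931) and Arhgap32 (r = 0.913). For Grin2c they were Bmp1 (r = 0.944), Irak2 (r = 0.929) and Map3k10 (r = 0.927). For Grin3a they were the cation channel gene Trpc5 (r = 0.915), the prostaglandin receptor gene Ptger3 (r = 0.907) and Adgra1 (r = 0.90). Without SNI desipramine replicates 2 and 3, Psd2, Grin1os, Dock3, Bmp1 and Trpc5 still ranked 1 for their member, while r for Lrrc75b and Slc6a11 with Grin2d was 0.926 and 0.931, and Arhgap32 fell to rank 27 for Grin2b (r = 0.843).

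Genes that work with the NMDA receptor were followed as 56 partner genes in 5 lists, of which 55 were tested and Slc6a5 was too low. In SNI against sham on desipramine 4 rose and 13 fell by edgeR, or 30.9% of the list beside 11.3% of all genes, with a median difference of -0.21 against 0.01 over all genes. The list was chosen with results of these libraries known. Of 12 co-agonist genes, 3 rose and 2 fell, among them Slc7a10, the transporter of D-serine and small amino acids, at 0.65 ± 0.14 (adjusted p = 0.00754). Of 13 scaffold and anchor genes, 1 rose and 4 fell, with Ephb2, an ephrin receptor that binds the NMDA receptor, at 1.09 ± 0.23 (adjusted p = 0.00769). Of 12 kinases and phosphatases 4 fell. Of 10 downstream signalling genes 2 fell and of 8 trafficking genes 1 fell. The markers given beside Grin2d moved in the same libraries, and with the tissue scores as covariates, or without SNI desipramine replicate 2, or without replicates 2 and 3, 0 genes of the table and so 0 partner genes passed.

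**Figure D5:**
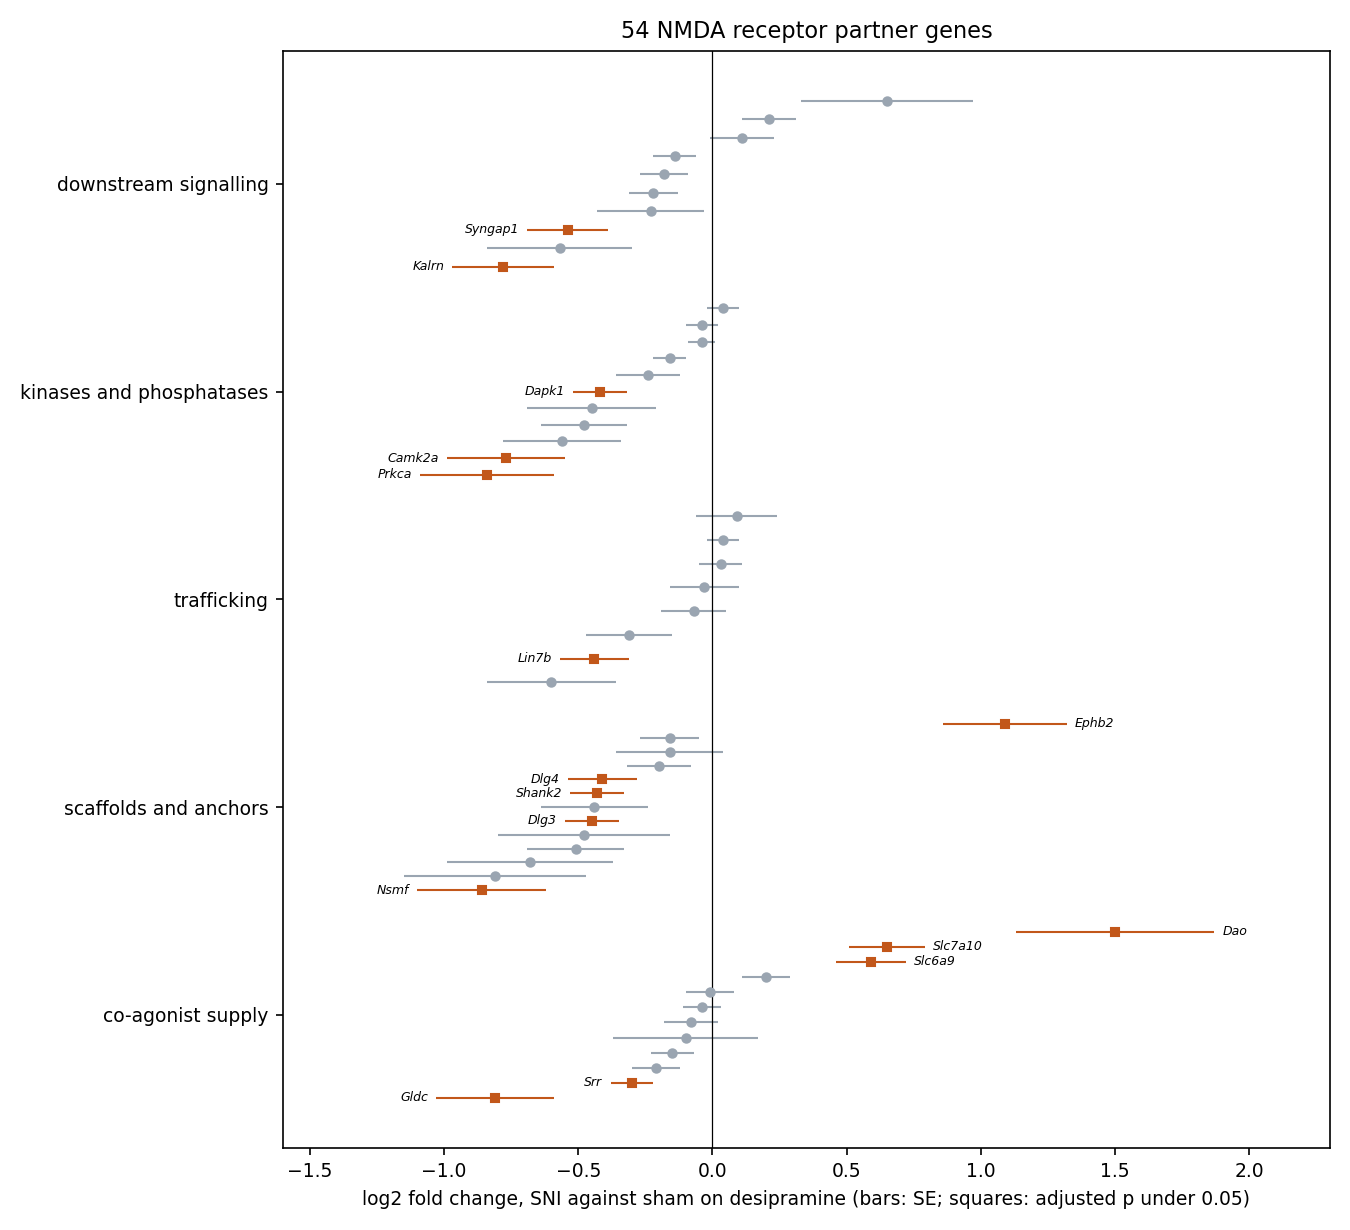
Log2 fold change with SE (x axis) of 54 tested partner genes in SNI against sham on desipramine, grouped by list, with squares and names where the adjusted p is under 0.05. Of the 16 squares, 12 lie below 0 and 4 above, and the scaffold list has a median of -0.44.

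In the other 12 comparisons 0 of 55 partner genes passed by edgeR, while 0 to 27 were at an unadjusted p under 0.05; the other tools were not run on this list. The nearest were, averaged over treatments after SNI, the death-associated kinase gene Dapk1 at -0.18 ± 0.05 (adjusted p = 0.0514), Ephb2 at 0.43 ± 0.12 (adjusted p = 0.0553) and Dlg3, a synaptic scaffold gene, at -0.18 ± 0.05 (adjusted p = 0.0569). With desipramine against saline in SNI, Nos1, which encodes neuronal nitric oxide synthase and is also among the interneuron markers, was at 0.46 ± 0.11 (adjusted p = 0.0769) and the glycine transporter gene Slc6a9 at 0.49 ± 0.12 (adjusted p = 0.08). With tianeptine against desipramine, Shmt1, a serine and glycine interconverting enzyme, was at 0.25 ± 0.06 (adjusted p = 0.0676).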

How the data were processed

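The deposited table holds raw counts of reads per gene for 30 libraries, which the authors made with Trim Galore, HISAT2, SAMtools and featureCounts on mm10, per the submitters' processing notes. Not given in the sources used here are the versions, the annotation release and the strand setting. Gene IDs were matched to GENCODE M21, 54349 exactly and 792 without their version, and 260 IDs with 0.051% of the counts had no match. From the counts, edgeR 4.0.16 in R 4.3.3 removed low genes (filterByExpr), scaled by TMM and fitted all 6 groups with the library set as a term, by robust quasi-likelihood. The 23736 genes kept hold 99.925% of the counts. Each of 13 contrasts was tested with Benjamini-Hochberg adjustment over all genes, at a threshold of 0.05. The common biological coefficient of variation was 17.5%, with 23 residual degrees of freedom, and the library totals, 24.5 to 120.7 M counts, set the counting error.

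The members, the marker lists and the partner lists were chosen with earlier results of these data known. Named partner genes are those with at most the 3 smallest p per comparison. The genes alike are the 3 with the highest r per member among named genes whose mean log2 CPM was 1 or more. A gene from each of these rules is not reported here, and the partner gene among them is not drawn. Log2 CPM used a prior count of 2. Coding-length shares and the shares, correlations and likeness without SNI desipramine replicates 2 and 3 were chosen after seeing the data. The other tools were DESeq2 1.42.0 and limma-voom (limma 3.58.1), and the fit was tested on simulated data. Coding length came from GENCODE and upstream sequence from RefSeq on GRCm38.p6, where Grin1, Grin2c and Grin2d were matched. The Grin2d window lies in an exon of its GENCODE model and is not shown. No library pair of a group had counts equal within sampling noise (chi-square per degree of freedom of at least 6.89 over 62 pairs).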

Additional observations from a re-analysis of the deposited data

Results flagged for a closer look

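Grin2c in sham desipramine replicate 2 stood apart from its group, at 111 CPM against 78.5 to 81.7 CPM in the other 3 libraries. It was the 1 value of 42 (6 genes and the Grin2a to Grin2b ratio in each of 6 groups) in which the highest or lowest library was far from its neighbours by Dixon's test. Chance alone marks about 5% of groups. The same library had the highest Grin1 of its group at 471 CPM and Grin2a and Grin2b of 113 and 455 CPM. Without it, 2 members were called in SNI against sham on desipramine in place of 1.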

How the results depend on the processing

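Of 2058 values of members under the alternatives, 1876 kept their side of the threshold and their sign, 32 lost a call, 23 gained one, 0 called values changed sign, and 127 uncalled values changed sign. The largest of these was the Grin2a difference on desipramine, from -0.59 to 0.10 with tissue scores as covariates.

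In SNI against sham on desipramine, where 1 member was called, the count was 3 with median ratio size factors, 3 by DESeq2, 3 without sham saline replicates 2 and 3, 2 by limma-voom, 2 with the replicate block, and 0 with tissue scores as covariates or without SNI desipramine replicates 2 and 3. Leaving out 1 library gave 0 to 5. The added members were Grin1 and Grin2b with median ratio size factors (-0.26 and -0.49, adjusted p = 0.0441 and 0.0482) and by DESeq2, and Grin2b by limma-voom and with the block. Grin2d was at 0.94 to 1.01 by the other scalings, DESeq2, no filter and the first library set, and at 0.87 by limma-voom, and kept its call in these.

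Averaged over treatments, where 1 was called, the count was 2 by DESeq2 and 0 with no filter, by limma-voom, with no library set term, in the first library set, with the replicate block, with tissue scores as covariates, without SNI desipramine replicates 2 and 3, and without sham saline replicates 2 and 3. Leaving out 1 library gave 0 to 6, with 6 without SNI desipramine replicate 4. For desipramine against saline in SNI, 0 became 1 by DESeq2, and leaving out 1 library gave 0 to 1. The same range of 0 to 1 held for desipramine averaged over surgeries and for desipramine by surgery, with Grin2d called without SNI desipramine replicate 4. The cause was not tested.

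Of all genes, 2682 were called in SNI against sham on desipramine, with 3347 by DESeq2, 2315 by limma-voom, 1701 with no filter, 0 with tissue scores as covariates, 0 without SNI desipramine replicates 2 and 3, and 0 to 5903 when 1 library was left out. Averaged over treatments 437 were called, with 1601 by DESeq2, 897 by total count scaling, 77 with no library set term, 0 under the other alternatives that lost the Grin2d call, and 0 to 3756 when 1 library was left out. Tianeptine against desipramine had 104, with 422 by DESeq2, 259 with tissue scores, 190 and 17 without the sham saline or the SNI desipramine replicates 2 and 3, and 57 to 62 with no filter, the block or the first set. Desipramine averaged over surgeries had 7, with 132 by DESeq2, 30 with tissue scores and 0 in the first set. Leaving out 1 library gave 0 to 3352 genes for desipramine in SNI and 0 to 957 for desipramine by surgery. DESeq2 called 555 for desipramine in SNI, 100 for desipramine by surgery, 22 for desipramine in sham, 14 for SNI on tianeptine and at most 1 in the other comparisons where edgeR called 0.

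Replicate numbers did not pair the libraries. In the first library set, deviations of libraries with the same number correlated at a mean of -0.042, with 23 of 60 pairs over 0.1, and 3 of 24 libraries correlated best with their own number. With the replicate block the Grin2d difference on desipramine was 0.94 (adjusted p = 0.014).

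Desipramine groups have 4 mice and no library in the second set. Labels give 1 animal per library, and no litter, cage or surgery day. Antisense reads over Grin1 and Grin2d could not be separated, and levels per length assume the GENCODE exons.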

Other observations

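The antisense gene Grin1os held 0.517 ± 0.0132 counts per Grin1 count (SD, n = 30), with a range of 0.487 to 0.538. Its shared exon is 45.21% of its own length. Gm45441, antisense to Grin2d, held 194 to 1105 counts per library.

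Grin2a and Grin2b were higher in the second library set, at 164 ± 35.1 and 600 ± 41 CPM (SD, n = 6), than in the first, at 104 ± 29.5 and 472 ± 87.5 CPM (SD, n = 24). Grin1 was at 404 and 405 CPM. The second set has no desipramine library, and a test of this difference was not run.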
